A study of Caenorhabditis elegans with 26 samples.

Results

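The genes described here encode 9 proteins of the integrin attachments of Caenorhabditis elegans body wall muscle: pat-2, pat-3, unc-52, unc-112, pat-4, unc-97, pat-6, unc-95 and deb-1. They were chosen by name, and every probe set (a group of short probes read as 1 value) that the array annotation gives to these symbols was taken. All 9 genes are on the array, with 18 of its 22548 probe sets: 4 for unc-52, 1 each for pat-6 and unc-95, and 2 for each of the others. In the RefSeq gene table for assembly WBcel235, pat-2, pat-3 and pat-4 lie on chromosome III, pat-6 and deb-1 on IV, unc-52 on II, unc-112 on V, unc-95 on I, and unc-97 on X.

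Embryos released from gravid adults by bleaching were profiled on 26 Affymetrix arrays in 6 groups, and the series text calls the replicates biological. Embryos with a single X chromosome (XO, 8 arrays) came from the strain TY2222, which carries the alleles unc-9(e101), sdc-2(y74), xol-1(y9) and her-1(hv1y101). They are compared with wild-type XX embryos from the same type of plates, egg plates (6 arrays). Embryos with 2 X chromosomes and the allele sdc-2(y93) came from worms fed bacteria that make double-stranded sdc-2 RNA (sdc-2 embryos, 3 arrays). Their wild-type XX controls came from worms fed bacteria holding the empty plasmid, on the same type of RNAi plates (3 arrays). XX embryos with dpy-27(y57) (dpy-27 embryos, 3 arrays) are set against wild-type XX embryos from NG plates (3 arrays). SDC-2 brings the dosage compensation complex to both X chromosomes of XX embryos, DPY-27 is one of its subunits, and the complex lowers X-linked expression. All groups are whole embryos of mixed tissue, so that fewer muscle cells and less RNA per muscle cell cannot be told apart. Titles also hold dates, numbered 1 to 5 from the earliest and called date codes. XO embryos hold date codes 2 (3 arrays) and 5 (5 arrays), and their controls hold 2 (3 arrays) and 4 (3 arrays). Mutants and controls hold codes 5 and 3 on RNAi plates and 1 and 2 on NG plates, so there the genotype cannot be told apart from the date code.

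Body wall muscle of C. elegans is fixed to the epidermis through a basement membrane, and the pull of its filaments passes through integrins that cluster at dense bodies and M-lines. The integrin pair PAT-2 and PAT-3 crosses the muscle membrane and binds matrix that contains the perlecan UNC-52. Inside the cell the kindlin UNC-112, the integrin-linked kinase PAT-4, the PINCH protein UNC-97 and the parvin PAT-6 assemble on the integrin tail, the LIM domain protein UNC-95 joins them, and the vinculin DEB-1 links dense bodies to actin. Embryos that lack an essential member stop elongating and die with paralysed muscle, the Pat phenotype that gave several of these genes their names.

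Values are on the log2 scale, as RMA gives them for each probe set. The spread over the probe sets of an array (SD) lay between 2.00 and 2.06 on RNAi plates, between 2.41 and 2.45 on NG plates and between 2.27 and 2.32 on egg plates, as if each plate type had its own normalisation, so mutants were set only against controls of their own plate type. Arrays of a group and date code correlated at 0.984 to 0.998 over probe sets. All 8 body wall muscle markers lay above the array median in every array, and none of 5 adult yolk genes did. The sdc-2 transcript lay between 7.82 and 8.14 in sdc-2 embryos, against 9.25 to 9.42 in their controls, on 1 of its probe sets (log2 change -1.37, adjusted p = 5.25e-05), while the other gave -0.36 (adjusted p = 0.156). In dpy-27 embryos the brighter dpy-27 probe set gave -0.05 (adjusted p = 0.839) and the dimmer, at 5.96 to 6.27, against 5.13 to 5.54, rose by 0.81 (adjusted p = 0.00178), so neither shows a loss of the transcript.

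Each gene is described first on its brightest probe set, the one with the highest mean over all arrays, and all 9 of these were well expressed. The lowest value of any of them was 6.71, for unc-95 in an XO array, and it stood above 53.9% of the probe sets of that array. The 9 lay at different heights, from pat-3, never below the 97.2th percentile of an array, to unc-95, between the 53.9th and the 89.8th. Percentiles compare brightness within an array and depend on each probe set's own affinity.

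In dpy-27 embryos most of the attachment genes changed, and not in 1 direction. The integrin genes pat-2 and pat-3, the PINCH gene unc-97, the parvin gene pat-6 and the kindlin gene unc-112 rose, and the kinase gene pat-4 and the LIM gene unc-95 fell. That is 7 of 9 called at a Benjamini-Hochberg adjusted p under 0.05 in limma, where 31.7% of all probe sets (16.1% rose and 15.7% fell) and 47.6% of those with a mean above 6.4 were called. For all 9 genes the 3 dpy-27 arrays and the 3 control arrays did not overlap, which held for 52.5% of all probe sets. The median change of the 9 was 0.52, against 0.02 over all probe sets.

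In sdc-2 embryos pat-3 and unc-97 rose and unc-112, pat-4 and unc-95 fell, 5 of 9 genes, against 20.1% of all probe sets (8.34% rose and 11.7% fell) and 35.2% of those with a mean above 6.4. The arrays of the groups did not overlap for 6 genes, which held for 40.4% of all probe sets. In XO embryos pat-2 and pat-3 rose and pat-4 and unc-95 fell, 4 of 9, against 31.1% of all probe sets (15.4% rose and 15.7% fell) and 45.3% of those above 6.4. Only pat-4 and unc-95 had groups that did not overlap there, which held for 9.03% of all probe sets. The median change of the 9 was 0.20 in sdc-2 and 0.12 in XO embryos, against 0.01 and -0.01 over all probe sets. Over all 18 probe sets of the genes the median was -0.07 in sdc-2, 0.23 in dpy-27 and -0.06 in XO embryos, so its sign in sdc-2 and XO embryos depends on the probe sets taken. The XO count is near the share of expressed probe sets called.

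**Figure D1:**
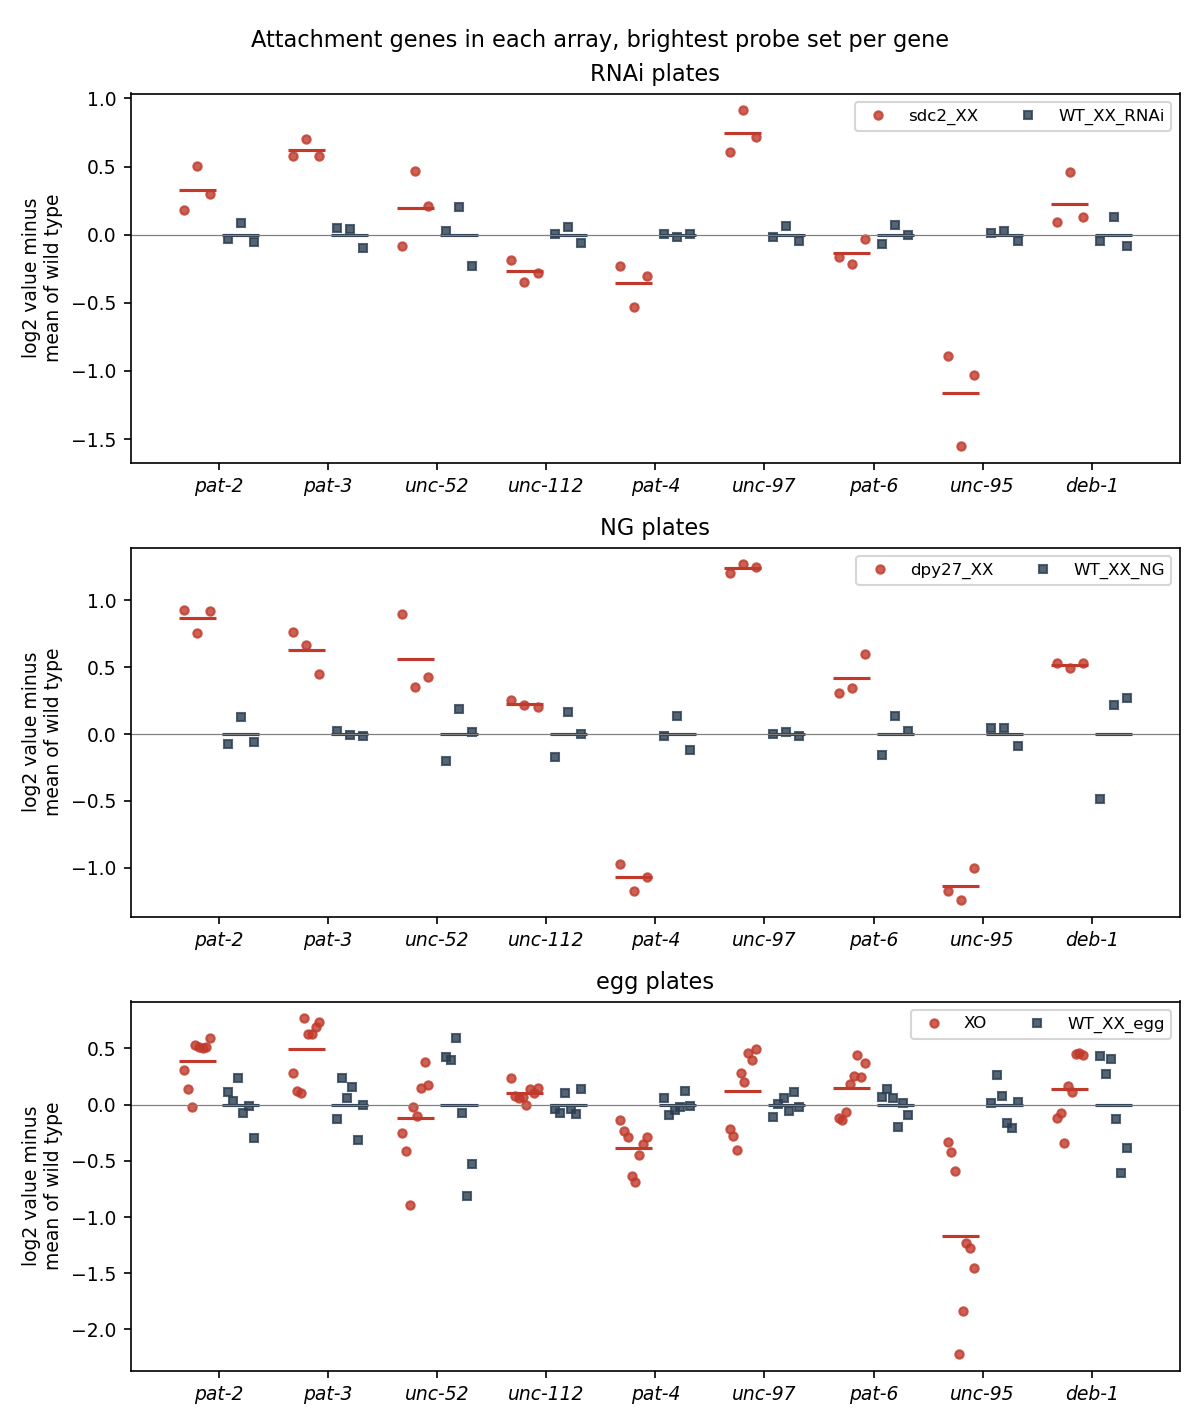
Value of each attachment gene in every array on its brightest probe set, as the log2 value less the mean of the wild-type arrays of the plate type. Panels run from RNAi to NG to egg plates, red circles are mutant and dark squares wild-type arrays, and bars are group means. The 3 dpy-27 arrays lie outside the controls for every gene, and unc-95 lies low in all 3 mutants.

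The integrin alpha subunit gene pat-2 had 10.24, 10.56 and 10.36 in sdc-2 embryos, against 10.03, 10.15 and 10.01 in their controls. In dpy-27 embryos it had 10.19, 10.02 and 10.18, against 9.19, 9.39 and 9.21. The 3 mutant arrays were higher than all controls in both comparisons, and the change was 0.33 (SE 0.14, adjusted p = 0.113) in sdc-2 embryos and 0.87 (SE 0.14, adjusted p = 5.62e-05) in dpy-27 embryos, a 1.82-fold rise. In XO embryos pat-2 ran from 9.40 over a median of 9.93 to 10.02, against 9.13, 9.43 and 9.66 (lowest, median, highest) in their controls, and it rose by 0.38 (SE 0.09, adjusted p = 0.00291), although the groups overlapped. Among the arrays of date code 2 alone the change was 0.01 (SE 0.09, adjusted p = 0.936).

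The beta subunit gene pat-3, whose product pairs with both alpha subunits of the worm, had 12.47, 12.59 and 12.46 in sdc-2 embryos, against 11.94, 11.93 and 11.79 in their controls. It had 12.55, 12.45 and 12.24 in dpy-27 embryos, against 11.81, 11.78 and 11.77. Its rises were alike in size, 0.62 (SE 0.16, adjusted p = 0.00807) and 0.63 (SE 0.16, adjusted p = 0.00414). In XO embryos pat-3 ran from 12.09 over 12.61 to 12.76, against 11.67, 12.01 and 12.22 in the controls, and rose by 0.49 (SE 0.11, adjusted p = 0.00098), while at date code 2 it gave 0.12 (SE 0.12, adjusted p = 0.476). The other alpha subunit gene, ina-1, gave -0.03 in sdc-2 embryos (adjusted p = 0.902), rose by 0.53 in dpy-27 embryos (adjusted p = 0.000332) and by 0.31 in XO embryos (adjusted p = 0.00113).

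The matrix ligand gene unc-52 had wider standard errors than the receptor genes. Its brightest probe set had 10.80, 11.36 and 11.10 in sdc-2 embryos, against 10.91, 11.09 and 10.66 in their controls, and 10.79, 10.25 and 10.32 in dpy-27 embryos, against 9.69, 10.09 and 9.91. The groups overlapped in the first comparison and not in the second, and neither difference passed the test (0.20, SE 0.31, adjusted p = 0.748, and 0.56, SE 0.31, adjusted p = 0.185). In XO embryos it ran from 8.99 over 9.83 to 10.27, against 9.07, 10.05 and 10.47, a change of -0.12 (SE 0.21, adjusted p = 0.7). At date code 2 the 3 XO arrays had 9.64, 9.47 and 8.99, all below the 3 controls at 10.30, 10.28 and 10.47, a fall of 0.99 (SE 0.18, adjusted p = 0.000398).

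The kindlin UNC-112 binds the integrin tail, and its transcript moved little on the brightest probe set. The dimmer one, which rose by 0.58 in dpy-27 embryos, is given below. The gene unc-112 had 11.25, 11.09 and 11.16 in sdc-2 embryos, against 11.44, 11.49 and 11.37 in controls, a fall of 0.27 (SE 0.08, adjusted p = 0.0247). In dpy-27 embryos it had 10.80, 10.76 and 10.75, against 10.38, 10.72 and 10.55, a rise of 0.22 (SE 0.08, adjusted p = 0.0438). Both calls were weak: the fall was lost without sdc2_XX replicate B (-0.23) or C (-0.27) or WT_XX_RNAi replicate A (-0.27) or B (-0.24), and the rise without any dpy27_XX replicate (0.21 to 0.23) or without WT_XX_NG replicate A (0.14) or C (0.23). XO arrays ran from 10.74 over 10.84 to 10.99, against 10.67, 10.71 and 10.89, and the change of 0.10 did not pass the test (SE 0.06, adjusted p = 0.163).

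The integrin-linked kinase gene pat-4 was lower in all 3 mutants. It had 8.45, 8.25 and 8.35 in dpy-27 embryos, against 9.41, 9.55 and 9.30 in their controls, a fall of 1.07 (SE 0.12, adjusted p = 5e-07) that was called under every alternative tried. In sdc-2 embryos it had 10.04, 9.74 and 9.96, against 10.27, 10.25 and 10.28, a fall of 0.35 (SE 0.12, adjusted p = 0.0349). The sdc-2 fall no longer passed without sdc2_XX replicate B (-0.27) or C (-0.38), or WT_XX_RNAi replicate A (-0.35), B (-0.36) or C (-0.35). In XO embryos pat-4 ran from 9.24 over 9.61 to 9.80, against 9.84, 9.91 and 10.05, with all XO arrays below all controls, and fell by 0.38 (SE 0.08, adjusted p = 0.000537). Among arrays of date code 2 it gave -0.19 (SE 0.10, adjusted p = 0.157).

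The PINCH gene unc-97 is the X-linked member. It had 12.47, 12.78 and 12.58 in sdc-2 embryos, against 11.85, 11.93 and 11.82 in their controls, and rose by 0.75 (SE 0.18, adjusted p = 0.0043). It had 12.49, 12.56 and 12.54 in dpy-27 embryos, against 11.28, 11.30 and 11.27, a 2.37-fold rise (log2 1.24, SE 0.18, adjusted p = 1.25e-05). The controls lay close together in both comparisons, and all mutant arrays stood above them. Among expressed X-linked probe sets the rise was larger than 69.4% of the changes in sdc-2 embryos and 86.2% of those in dpy-27 embryos, where X-linked medians were 0.45 and 0.47 and 45.6% and 48.5% of them rose.

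In XO embryos unc-97 ran from 11.17 over 11.82 to 12.08, against 11.47, 11.58 and 11.70 in the controls, and its change of 0.12 (SE 0.12, adjusted p = 0.488) averages over XO arrays on both sides of the controls. The median change of expressed X-linked probe sets was -0.34 there, and 52.9% of them fell. At date code 2 the 3 XO arrays (11.36, 11.30 and 11.17) all lay below the 3 controls (11.47, 11.59 and 11.64), and unc-97 fell by 0.29 (SE 0.09, adjusted p = 0.0186), against an X-linked median of -0.51, with 71.5% of expressed X-linked probe sets falling. This fall was lost without XO replicate 2C (-0.24) or WT_XX_egg replicate 2B (-0.28) or 2C (-0.25), and when arrays were re-centred by the median of autosomal probe sets (-0.23, adjusted p = 0.0598). The second probe set of unc-97 fell at date code 2 by 0.52 (adjusted p = 0.00503), a call kept under all 11 alternatives.

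The parvin gene pat-6 had 10.84, 10.88 and 11.13 in dpy-27 embryos, against 10.38, 10.67 and 10.56 in their controls, and rose by 0.42 (SE 0.14, adjusted p = 0.0195), a call lost without dpy27_XX replicate C (0.33) or WT_XX_NG replicate A (0.34). It had 11.46, 11.41 and 11.59 in sdc-2 embryos, against 11.56, 11.69 and 11.62, and the groups overlapped (-0.14, SE 0.14, adjusted p = 0.569). XO arrays ran from 11.06 over 11.41 to 11.64, against 11.01, 11.24 and 11.34 (0.15, SE 0.09, adjusted p = 0.233).

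The gene of the LIM protein UNC-95, which sits at dense bodies, M-lines and muscle cell nuclei, fell in all 3 mutants. It had 9.46, 8.80 and 9.32 in sdc-2 embryos, against 10.36, 10.38 and 10.31 in their controls (-1.16, SE 0.33, adjusted p = 0.0142). It had 6.96, 6.89 and 7.12 in dpy-27 embryos, against 8.17, 8.18 and 8.04 (-1.14, SE 0.33, adjusted p = 0.00965). XO arrays ran from 6.71 over 7.67 to 8.60, all below the controls at 8.72, 8.94 and 9.19 (-1.17, SE 0.22, adjusted p = 0.000228). The falls were 2.23-fold, 2.20-fold and 2.25-fold, and the XO call held under all 26 alternatives. With date code as a random block the sdc-2 change was -0.61 (adjusted p = 0.787) and the dpy-27 change -0.72 (adjusted p = 0.408), and neither passed. The sdc-2 call was also lost without sdc2_XX replicate B (-0.96, adjusted p = 0.0905). At date code 2 the XO arrays had 8.34 to 8.60, against 8.94 to 9.19, a fall of 0.56 (SE 0.20, adjusted p = 0.0316) that was lost without XO replicate 2B (-0.57) or 2C (-0.49) or WT_XX_egg replicate 2B (-0.49) or 2C (-0.58).

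The vinculin gene deb-1 had 11.49, 11.85 and 11.52 in sdc-2 embryos, against 11.35, 11.53 and 11.31 in their controls (0.23, SE 0.25, adjusted p = 0.614). It had 11.13, 11.09 and 11.13 in dpy-27 embryos, against 10.11, 10.82 and 10.87 (0.52, SE 0.25, adjusted p = 0.118), where the mutant arrays were all higher but 1 control lay below the other two. XO arrays ran from 10.14 over 10.63 to 10.94, against 9.88, 10.56 and 10.91 (0.14, SE 0.16, adjusted p = 0.566). At date code 2 deb-1 had 10.37, 10.41 and 10.14 in XO embryos, against 10.91, 10.76 and 10.89, and fell by 0.55 (SE 0.13, adjusted p = 0.00249). As for unc-52, its fall at that date does not appear in the pooled comparison.

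**Figure D2:**
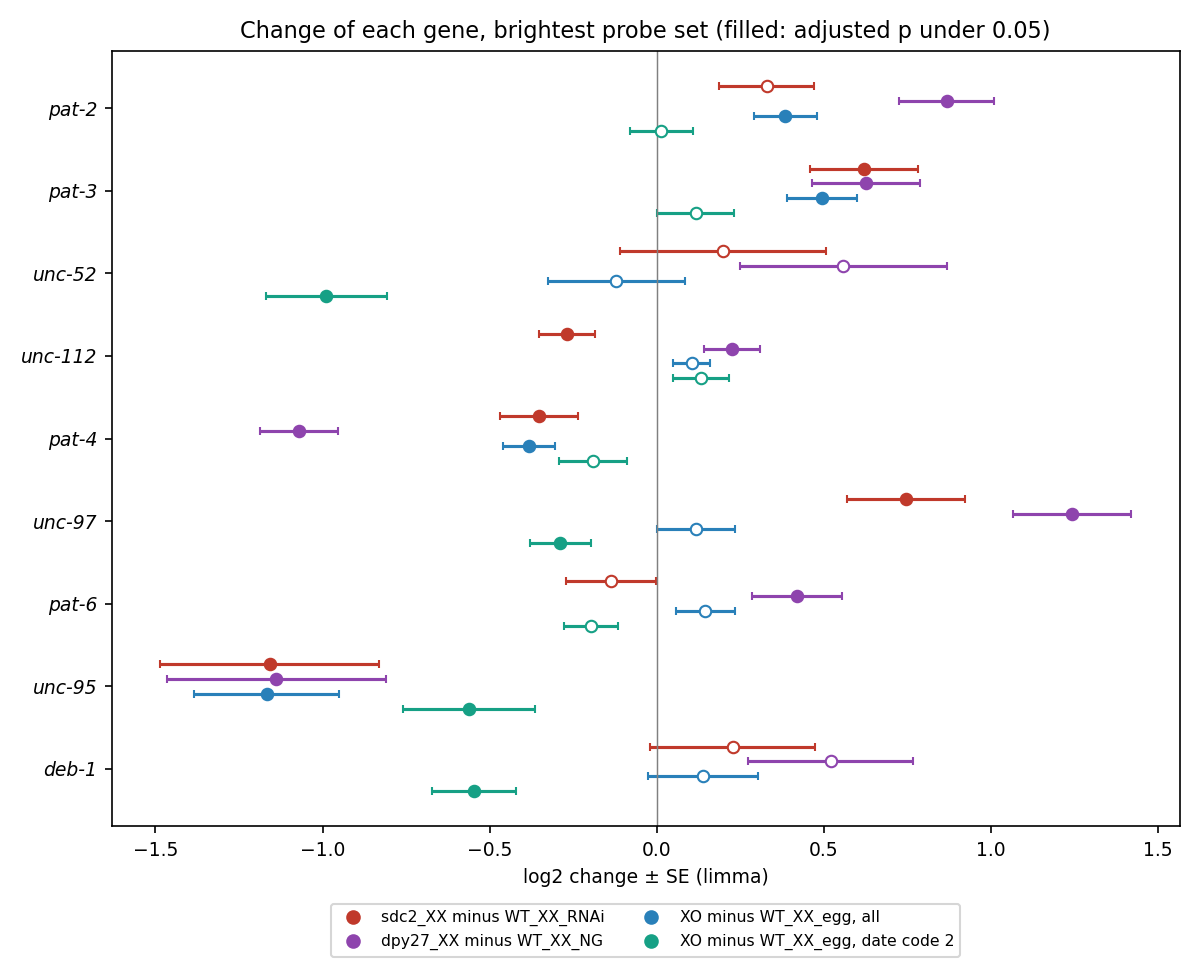
Log2 change of each attachment gene on its brightest probe set in 4 comparisons, mutant minus wild type of the same plate type, with the standard error from limma. Filled points passed an adjusted p under 0.05. The points of unc-95 lie at -1.16, -1.14 and -1.17 for sdc-2, dpy-27 and all XO embryos, and at -0.56 for the XO arrays of date code 2. Only among the XO arrays of date code 2 did unc-52 and deb-1 pass the test, as falls.

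The standard errors of the sdc-2 and dpy-27 comparisons come from a spread shared by all 26 arrays, and that spread includes the date differences of the egg plates. It is wide for unc-52 and deb-1. Their dpy-27 rises on the brightest probe sets passed the test when only the NG arrays were fitted (0.56, adjusted p = 0.0178, and 0.52, adjusted p = 0.0438). The other probe sets of unc-52 fell in dpy-27 embryos, and that of deb-1 gave -0.09. When only arrays of the plate type compared were fitted, both unc-112 calls were lost (-0.27, adjusted p = 0.0608, in sdc-2 and 0.22, adjusted p = 0.113, in dpy-27 embryos). Of the sdc-2 arrays, replicate B lay farthest from the mean of the other two for 6 of 9 genes, and its mean correlation with the other two, 0.986, was the lowest of any array with its own group and date code. Without it 2 of the 9 genes were called, the rises of pat-3 and unc-97. With date code as a random block none of the 9 was called in sdc-2 embryos, and in dpy-27 embryos only pat-2, unc-97 and pat-4 were. That block left 56 of all 22548 probe sets called in sdc-2 and 1671 in dpy-27 embryos, against 4525 and 7150 without it. The lack of sdc-2 calls under it is therefore not particular to these genes. The mean of the 8 body wall muscle markers lay between 10.16 and 10.23 in sdc-2 embryos, against 10.37 to 10.55 in their controls, and between 8.95 and 9.20 in dpy-27 embryos, against 9.36 to 9.65. Of the 8 markers 2 fell in sdc-2, 3 in dpy-27 and 6 in XO embryos, where 21.6%, 25.2% and 22.1% of expressed probe sets fell, and none rose. Not all ran downwards: the twitchin gene unc-22 averaged 9.34 in sdc-2 embryos, against 8.66 in their controls, and 9.24 in dpy-27 embryos, against 8.09. Of 9 early maternal genes 4 rose in sdc-2, 3 fell in dpy-27 and 1 fell in XO embryos. Of expressed probe sets 13.6% rose in sdc-2, 25.2% fell in dpy-27 and 22.1% fell in XO embryos, so the dpy-27 and XO counts do not stand out. The part of muscle and maternal genes in the changes of the attachment genes was not tested.

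Most of these genes differed between the XO arrays of the 2 dates, and fewer between the wild-type arrays. Between XO arrays of date code 5 and of date code 2, pat-2 (0.39), pat-3 (0.52), unc-52 (0.64), unc-97 (0.67), pat-6 (0.40) and deb-1 (0.50) were higher at code 5, and pat-4 (-0.26) and unc-95 (-1.16) were lower. That is 8 of 9 genes, against 41.1% of all probe sets (18.7% higher and 22.4% lower) and 56.5% of those above 6.4. The 5 XO arrays of code 5 had unc-95 at 6.71, 7.09, 7.70, 7.65 and 7.47, all below the 3 of code 2. No control holds code 5, so genotype and date cannot be told apart there. The pat-4 difference between dates was lost without XO replicate 2A (-0.22), 2B (-0.27), 5A (-0.23) or 5B (-0.21).

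Between wild-type embryos of date code 4 and of date code 2, unc-52 (-0.94, SE 0.18), deb-1 (-0.74, SE 0.13) and pat-2 (-0.25, SE 0.09) were lower at code 4. That is 3 of 9 genes, against 38.9% of all probe sets (20.7% higher and 18.2% lower) and 55.9% of those above 6.4. The pat-2 call was lost without WT_XX_egg replicate 2A (-0.26), 2C (-0.20), 4A (-0.28) or 4C (-0.17). Wild-type arrays of code 4 had deb-1 at 10.36, 9.88 and 10.10, lower than those of code 2 at 10.91, 10.76 and 10.89. Muscle markers averaged 9.40 to 9.56 at code 4, against 10.33 to 10.36 at code 2, and 7 of 8 fell, while 6 of 9 early maternal genes rose. Of expressed probe sets 31.2% rose and 24.8% fell between these dates. Other tissues moved too: pharynx markers averaged 8.29 to 8.72 at code 4, against 9.32 to 9.52 at code 2 (4 of 6 fell), and neuron markers 9.06 to 9.11, against 9.87 to 9.95 (5 of 7 fell). In the XO comparison only date code 2 holds both groups. There 4 of 9 genes fell and none rose, against 41.2% of all probe sets (21.4% rose and 19.8% fell) and 62.8% of those above 6.4, with muscle markers at 9.31 to 9.60 in XO embryos, against 10.33 to 10.36 in controls. Over all 18 probe sets 11 fell and none rose at that date, with a median of -0.45. The shift was not limited to muscle: pharynx markers averaged 8.10 to 8.61 in XO embryos, against 9.32 to 9.52 in controls (5 of 6 fell), and neuron markers 9.17 to 9.40, against 9.87 to 9.95 (5 of 7 fell). Of expressed probe sets 28.6% fell there. Whether these marker differences bear on the attachment genes was not tested.

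**Figure D3:**
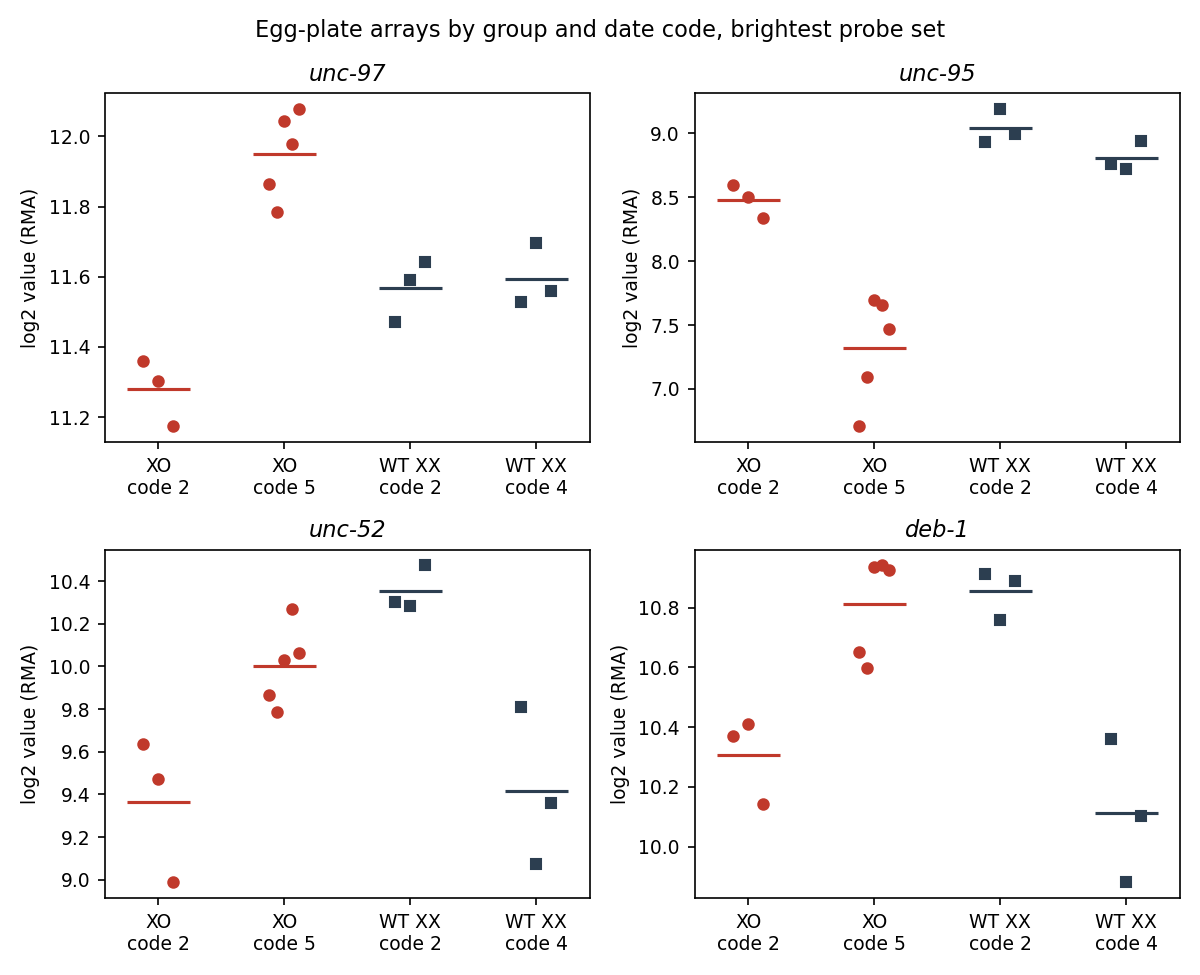
Log2 value of unc-97, unc-95, unc-52 and deb-1 on their brightest probe sets in the 14 egg-plate arrays, split by group (red circles XO, dark squares wild-type XX) and date code, with the mean of each as a bar. XO arrays of code 5 lie above the controls for unc-97 and below them for unc-95, while unc-52 and deb-1 are low in the XO arrays of code 2 and in the controls of code 4.

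Probe sets of the same gene did not always move together, and unc-52 showed this most. Its other 3 probe sets fell in all 3 mutants, where the brightest passed the test in none. On the probe set ending in _s_at unc-52 had 9.59, 9.30 and 9.25 in sdc-2 embryos, against 10.77, 10.88 and 10.43 in their controls (-1.32, SE 0.35, adjusted p = 0.00854). It had 7.88, 7.43 and 7.49 in dpy-27 embryos, against 8.85, 9.55 and 9.37 (-1.65, SE 0.35, adjusted p = 0.000676), a 3.15-fold fall. XO arrays ran from 7.56 over 8.19 to 8.67, against 8.28, 9.43 and 10.12 (-1.19, SE 0.23, adjusted p = 0.000302), and at date code 2 the fall was 1.55 (SE 0.24, adjusted p = 0.000108). The gene is known to make several perlecan isoforms, and which of them each probe set reads was not tested.

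On the probe set ending in _x_at unc-52 fell by 0.66, 1.15 and 0.80 in sdc-2, dpy-27 and XO embryos, and on the dimmest, listed under 2 gene IDs and with a mean of 6.17, under the 6.4 taken as expressed, by 0.66, 1.13 and 0.78. On all 3 the XO arrays overlapped their controls. In sdc-2 embryos the _x_at fall of unc-52 no longer passed with any 1 of the 6 arrays left out (-0.72 to -0.55), and that of the dimmest without sdc2_XX replicate B (-0.51) or WT_XX_RNAi replicate A (-0.67), B (-0.63) or C (-0.68). The difference within an array between the brightest and the _s_at probe set of unc-52 averaged 1.71 ± 0.44 in sdc-2 embryos, against 0.20 ± 0.04 in their controls, and 2.85 ± 0.05 in dpy-27 embryos, against 0.64 ± 0.18 (SD, n = 3 each). The exact permutation p (two-sided) of each was 0.1, and 3 against 3 arrays allow none smaller. In XO embryos it averaged 1.60 ± 0.53 (SD, n = 8), against 0.53 ± 0.20 in controls (SD, n = 6; exact permutation p = 0.00167, 0.036 adjusted over 24 such differences), and the groups did not overlap. Within date code 2 it averaged 0.98 ± 0.04 in XO embryos, against 0.42 ± 0.22 in controls (SD, n = 3 each; exact permutation p = 0.1), and for the _x_at probe set the difference between the groups there was 0.02.

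**Figure D4:**
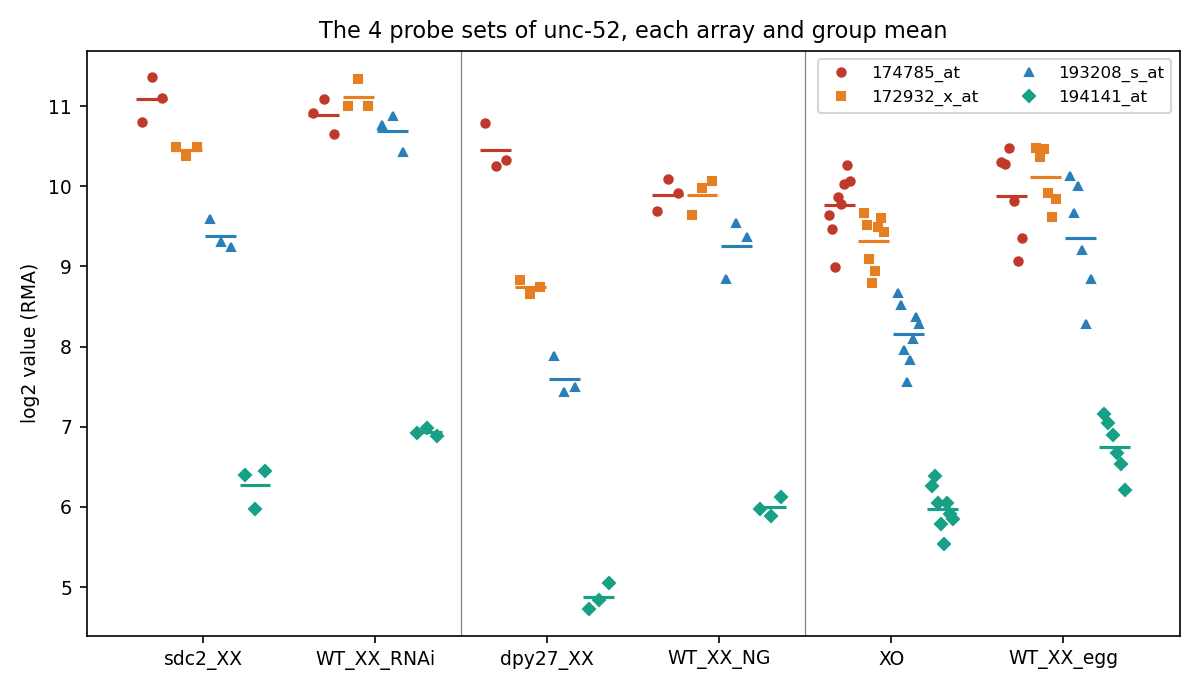
Log2 value of the 4 unc-52 probe sets in each array of the 6 groups, with group means as bars and lines parting the plate types. The brightest probe set overlaps between mutant and wild type on RNAi and egg plates, while the one ending in _s_at averages 9.38 against 10.69 in the sdc-2 comparison, 7.60 against 9.26 in the dpy-27 comparison and 8.16 against 9.35 in the XO comparison. Heights of different probe sets are not comparable.

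The second probe set of unc-97 had 10.95, 10.79 and 10.95 in sdc-2 embryos, against 10.86, 10.78 and 10.80 in controls, and 10.31, 10.37 and 10.83 in dpy-27 embryos, against 10.06, 10.35 and 10.38. Neither difference passed the test (0.09, adjusted p = 0.777, and 0.24, adjusted p = 0.244). In XO embryos this probe set ran from 9.47 over 9.96 to 10.09, all below the controls at 10.33, 10.48 and 10.64, and fell by 0.58 (SE 0.10, adjusted p = 8.17e-05), where the brightest gave 0.12. The difference of the probe sets of unc-97 averaged 1.82 ± 0.49 in XO embryos (SD, n = 8), against 1.12 ± 0.15 in controls (SD, n = 6; exact permutation p = 0.00699, adjusted 0.0419). Among arrays of date code 2, the code that both groups share, it averaged 1.26 ± 0.18 in XO embryos, against 1.03 ± 0.11 in controls (SD, n = 3 each; exact permutation p = 0.2), and the groups overlapped.

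The second probe sets of the other genes were as follows. For pat-3 it gave -0.21, 0.05 and -0.00 in sdc-2, dpy-27 and XO embryos, none past the test, where the brightest rose in each. For pat-4 it gave -0.08 and -0.18 in sdc-2 and dpy-27 embryos, past the test in neither, and fell by 0.26 in XO embryos, a call lost without WT_XX_egg replicate 2A or 2B (-0.23 each). At date code 2 this pat-4 probe set fell by 0.42 in XO embryos (adjusted p = 0.00323), a call kept under all 11 alternatives. For pat-2 it rose in dpy-27 embryos by 0.68 (adjusted p = 0.0111), a call lost without WT_XX_NG replicate A (0.58), and gave -0.01 and 0.14 in sdc-2 and XO embryos, while at date code 2 it fell by 0.48 in XO embryos (adjusted p = 0.000934). Both probe sets of unc-112 rose in dpy-27 embryos, by 0.22 and, on the dimmer, by 0.58 (adjusted p = 0.000509). In sdc-2 and XO embryos the dimmer gave -0.04 (adjusted p = 0.872) and 0.15 (adjusted p = 0.14). For deb-1 it passed the test in none of the 3 mutants (-0.05, -0.09 and -0.17) and fell at date code 2 by 0.75, as the brightest did.

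Such differences were not limited to these genes. The signed change on _at probe sets less that on _s_at probe sets was taken over the 919 other expressed genes with both kinds. Its median was 0.29 in sdc-2, 0.45 in dpy-27 and 0.15 in XO embryos, and 0.00 between XO and wild type at date code 2. A positive value means a higher _at change, not one larger in size. An _s_at or _x_at ending marks probes that can match several transcripts. The part of probe design in the disagreement was not tested. Over all 18 probe sets, 2 rose and 6 fell in sdc-2 embryos, 7 rose and 5 fell in dpy-27 embryos, and 2 rose and 7 fell in XO embryos.

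The effects of the genotypes on a gene were set against each other within the same fit. This is limited because the plate types seem to have been normalised apart. The dpy-27 rise of unc-97 exceeded its XO change by 1.12 (SE 0.21, adjusted p = 0.00042), and its sdc-2 rise exceeded the XO change by 0.63 (SE 0.21, adjusted p = 0.0451). Over expressed X-linked probe sets the medians of these differences were 0.85 and 0.84, so such differences are not particular to unc-97. The dpy-27 fall of pat-4 was larger than that in sdc-2 embryos by 0.72 (SE 0.17, adjusted p = 0.00696) and than that in XO embryos by 0.69 (SE 0.14, adjusted p = 0.000901). For unc-95 the 3 effects were close, with differences from -0.02 to 0.03 and standard errors of 0.39 to 0.46. Of the 9 genes 2 differed between sdc-2 and dpy-27 effects, 3 between dpy-27 and XO and 2 between sdc-2 and XO, against 9.51%, 22.6% and 16.4% of all probe sets. The comparisons share no control arrays.

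Partner genes of dense bodies and M-lines, 22 in all, also moved both ways. In dpy-27 embryos 10 rose and 3 fell, in sdc-2 embryos 3 rose and 1 fell, and in XO embryos 4 rose and 5 fell. Among expressed probe sets 22.4% rose and 25.2% fell in dpy-27, 13.6% rose and 21.6% fell in sdc-2, and 23.2% rose and 22.1% fell in XO embryos. The largest rises were in the X-linked rrc-1 (0.90 in sdc-2 and 1.80 in dpy-27 embryos), the X-linked git-1 (0.44 in sdc-2), and the Cdc42 exchange factor gene uig-1 (1.01 in dpy-27, 0.43 in XO). The zyxin gene zyx-1 (-1.17) and the ALP/Enigma gene alp-1 (-0.60) fell most in dpy-27 embryos, and zyx-1 (-0.55) and lim-8 (-0.53) in XO embryos. The focal adhesion kinase gene kin-32 was the 1 partner gene that fell in sdc-2 embryos, by 0.62, and it rose by 0.80 in dpy-27 and by 0.45 in XO embryos.

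The talin gene tln-1, whose product binds the integrin tail, rose by 0.57 in dpy-27 embryos (adjusted p = 0.0113) and gave 0.06 in sdc-2 and -0.01 in XO embryos. The alpha-actinin gene atn-1, a dense body crosslinker of actin, gave -0.03, 0.11 and 0.02 in sdc-2, dpy-27 and XO embryos, none past the test. The X-linked unc-98, whose zinc finger protein binds UNC-97, gave 0.31 in sdc-2 embryos (adjusted p = 0.236), rose by 0.51 in dpy-27 embryos and fell by 0.50 in XO embryos. At date code 2, 13 of the 22 partner genes fell in XO embryos and 1 rose, where 34.2% of expressed probe sets rose and 28.6% fell. Between wild-type arrays of codes 4 and 2, 2 partner genes rose and 12 fell, against 31.2% and 24.8% of expressed probe sets.

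Of 18 basement membrane genes, 10 rose and 2 fell in dpy-27 embryos, 4 rose and 1 fell in sdc-2 embryos, and 4 fell in XO embryos. The shares of expressed probe sets are those given above for the partner genes (22.4% rose and 25.2% fell in dpy-27 embryos), and the 4 falls in XO embryos are near the 22.1% of them that fell. The median change of the 18 was 0.58 in dpy-27 embryos, against 0.02 over all probe sets. Several of the 18 are X-linked, and 48.5% of expressed X-linked probe sets rose in dpy-27 embryos, with a median of 0.47. The part of X linkage in these counts was not tested. The X-linked laminin gene lam-2 (1.31) and the X-linked glypican gene gpn-1 (1.17) rose most in dpy-27 embryos, and the X-linked syndecan gene sdn-1 (1.04) and dystroglycan gene dgn-1 (0.94) in sdc-2 embryos. The type IV collagen gene let-2 fell in dpy-27 (-0.83) and XO embryos (-0.74), the protease gene gon-1 fell in dpy-27 (-0.24), nid-1, the nidogen gene, fell in sdc-2 (-0.39) and the peroxidasin gene pxn-2 fell in XO embryos (-0.88). Both let-2 and pxn-2 are X-linked too.

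Fibrous organelles carry the pull of muscle across the epidermis. Of 9 measured genes 1 fell in sdc-2 embryos, mua-3 (-1.26), which encodes a transmembrane attachment protein. In dpy-27 embryos the intermediate filament gene ifb-1 rose (0.55) and the spectraplakin gene vab-10 fell (-1.71), and in XO embryos 5 fell, with mua-3 (-0.58) and mup-4 (-0.48) the largest. Of 24 measured contractile genes and regulators, 4 rose and 2 fell in sdc-2, 7 rose and 5 fell in dpy-27, and 3 rose and 9 fell in XO embryos. Among expressed probe sets 13.6% rose and 21.6% fell in sdc-2, 22.4% rose and 25.2% fell in dpy-27, and 23.2% rose and 22.1% fell in XO embryos. The X-linked troponin T genes tnt-2 (0.96) and tnt-3 (0.84) rose and the myosin gene myo-3 (-1.14) and the muscle regulator hlh-1 (-0.98) fell in sdc-2 embryos. In dpy-27 embryos tnt-3 (1.27) and the obscurin gene unc-89 (1.22) rose and the myosin gene unc-54 (-1.76) and the troponin C gene pat-10 (-1.31) fell, and in XO embryos the ryanodine receptor gene unc-68 (0.82) and unc-89 (0.51) rose and the troponin I gene tni-1 (-0.78) and unc-54 (-0.73) fell. All 8 muscle markers are among these contractile genes. Re-centring by the autosomal median raises all changes by 0.11 in sdc-2 and 0.18 in dpy-27 embryos. Then 14 basement membrane genes rose and 0 fell in dpy-27 embryos, and with the same re-centring 10 contractile genes rose and 5 fell. The share of all expressed probe sets that rose or fell after re-centring was not counted. The shares given above are from the values before re-centring, so they are no measure for these counts.

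Across the 26 arrays, with each value taken less the mean of its plate type, the 9 genes did not form 1 group. The largest correlations were between unc-52 and deb-1 (Pearson r = 0.88), pat-2 and unc-97 (0.86), pat-2 and pat-3 (0.85) and pat-4 and unc-95 (0.83). The pair pat-4 and unc-95 ran against the others, with r = -0.89 between pat-3 and unc-95 and -0.86 between pat-2 and pat-4, and unc-112 had no r beyond 0.47 in size. These are descriptions over 26 arrays that share genotypes, dates and normalisation. The brightest probe sets of pat-4, unc-95, pat-6 and unc-112 end in _s_at, and those of the other genes in _at. As given above, these endings changed differently over other genes too, and other probe sets of unc-52, unc-97 and pat-3 did not follow the brightest. The part of the probe set type in these correlations was not tested. The probe sets most like the mean profile of the 9, of 10847 compared, were those of F44E2.4 (0.95), pqn-13 (0.93), C05D12.3 (0.93), lron-12 (0.93) and nep-22 (0.92).

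**Figure D5:**
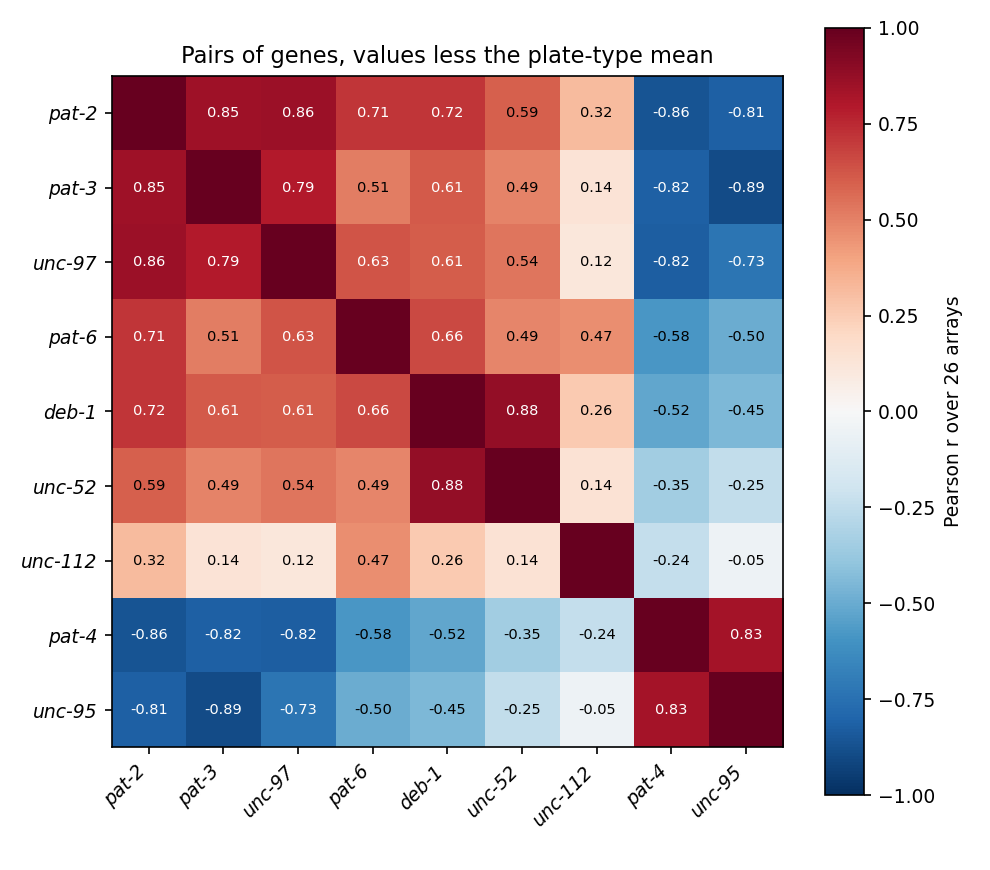
Pearson correlation over 26 arrays for each pair of attachment genes on their brightest probe sets, after the mean of the plate type is taken from each value. Red is positive and blue negative. The genes pat-2, pat-3, unc-97, pat-6, deb-1 and unc-52 correlate positively with each other, and pat-4 and unc-95 with each other (0.83) but negatively with the rest. The probe sets of pat-4, unc-95, pat-6 and unc-112 end in _s_at, the others in _at.

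Levels were set across plate types only after joint quantile normalisation of all 26 arrays, since the deposited values seem to have been normalised apart. In wild-type embryos unc-95 then averaged 10.16 ± 0.06 on RNAi plates (SD, n = 3), 8.25 ± 0.11 on NG plates (n = 3) and 8.92 ± 0.19 on egg plates (n = 6). The brightest unc-97 probe set averaged 11.71 ± 0.07, 11.42 ± 0.03 and 11.63 ± 0.09 in the same groups, and pat-3 averaged 11.74 ± 0.08, 11.89 ± 0.02 and 12.03 ± 0.18. Wild-type unc-95 was highest on RNAi and lowest on NG plates, with no overlap of mean and SD between the 3. Date code 3 holds only RNAi plates, while code 2 holds wild type on both NG and egg plates, and no test was made across plate types.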

How the data were processed

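Embryo RNA was hybridised to 26 Affymetrix arrays. The authors deposited log2 values for each probe set, from RMA per the submitters' processing notes, with no version given in the sources used here. Precision is limited by the number of arrays. Probe sets were named with GEO's array annotation: 20766 list 1 gene, 887 several and 895 none. No value filter was applied. limma 3.58.1 in R 4.3.3 fitted 6 group means to all arrays (20 residual and 3.24 prior degrees of freedom), with Benjamini-Hochberg adjustment over 22548 probe sets and a two-sided threshold of 0.05. Date codes were compared in a fit of the 14 egg-plate arrays with a mean per group and date code (10 residual and 5.16 prior degrees of freedom). Expressed means a mean above 6.4. The fit was tested on simulated data.

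The members and gene lists were chosen with earlier results of these data known. Named genes are the members, the called list genes with the 2 largest rises and falls per plate-matched comparison, and tln-1, atn-1, unc-98 and ina-1. Deviations of same-letter arrays from their group means correlated at -0.30 to 0.25, so letters were not taken to pair arrays. No sequence table was used here, and the planned promoter motif search was not run. Alternatives covered scaling, features, variance, weights, blocks, thresholds and each array left out.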

Additional observations from a re-analysis of the deposited data

Results flagged for a closer look

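In 7 results the effects of genotypes on a gene differed by a test of the difference itself in limma. Each sets a change on 1 plate type against a change on another, and the plate types seem to have had separate normalisations. For pat-4 the sdc-2 effect exceeded the dpy-27 effect by 0.717 (adjusted p = 0.00696), and the dpy-27 effect lay below the XO effect (difference -0.687, adjusted p = 0.000901). With the mean of the probe sets of pat-4 neither difference passed (0.41, adjusted p = 0.0753, and -0.30, adjusted p = 0.0787). For unc-97 the dpy-27 effect exceeded the XO effect by 1.12 (adjusted p = 0.00042) and the sdc-2 effect exceeded it by 0.629 (adjusted p = 0.0451), and both differences were also called on its second probe set (0.82 and 0.67). The medians of expressed X-linked probe sets for the same differences were 0.85 and 0.84. For unc-112 the sdc-2 effect lay below the dpy-27 effect (difference -0.493, adjusted p = 0.00926) and below the XO effect (difference -0.374, adjusted p = 0.0117). The second of these did not pass with re-centring (-0.25, adjusted p = 0.128) or with the mean of probe sets (-0.28, adjusted p = 0.0649), nor on the dimmer probe set of unc-112 (-0.20, adjusted p = 0.401). For pat-2 the dpy-27 effect exceeded the XO effect by 0.483 (adjusted p = 0.0427), which did not pass with joint quantile normalisation (0.47, adjusted p = 0.0787) or with the mean of probe sets (0.51, adjusted p = 0.0668). Dixon's test set no array apart in 36 sets of values, the 18 probe sets in the XO and the wild-type egg-plate arrays, where chance alone would give about 1 in 20. Both date codes of a group were pooled in these sets, so an array far from the others of its own date code could be missed. Groups of 3 arrays were not tested.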

How the results depend on the processing

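Of the results for single probe sets, 1941 kept their side of the threshold under an alternative, 132 lost a call, 44 gained one and 7 turned round with a call. A result that changed sign but was called in neither fit is counted among the 1941. The count of 5 called genes in sdc-2 embryos became 2 at an adjusted p under 0.01, 3 with a variance trend, 2 with the mean of probe sets, 0 with a random block for date code and 2 of 5 measured genes when _s_at and _x_at probe sets were left out. With these endings left out 3 of 5 were called in dpy-27, 2 of 5 in XO embryos, and 5 of 5 between XO dates, and 3 of 9 (pat-2, unc-97 and pat-4) in dpy-27 embryos with the date block. Under the date block 56 of all 22548 probe sets were called in sdc-2 and 1671 in dpy-27 embryos. Between XO dates 5 of 9 were called with the mean of probe sets, and at date code 2 in XO embryos 2 at an adjusted p under 0.01. The number of genes with unequal sdc-2 and dpy-27 effects, 2, became 0 with the date block, 1 with the mean of probe sets, 5 with a mean per group and date code, 4 with re-centring and 0 without _s_at and _x_at. For dpy-27 and XO effects, 3 became 1 with the mean of probe sets, 5 with a mean per group and date code and 5 with re-centring, and for sdc-2 and XO effects, 2 became 0 at an adjusted p under 0.01, 0 with the date block, and 1 each with the mean of probe sets, with re-centring and without _s_at and _x_at. Over all probe sets the date block called 15 unequal sdc-2 and dpy-27 effects and 1094 unequal sdc-2 and XO effects. Leaving out 1 array gave 2 to 5 called genes in sdc-2, 5 to 7 in dpy-27 and 4 to 4 in XO embryos, 2 to 4 in XO embryos at date code 2, 7 to 8 between XO dates and 2 to 3 between wild-type dates. With the mean of probe sets unc-52 turned to -0.75 in dpy-27 embryos, unc-97 to -0.2337 in XO embryos and pat-2 to -0.233 in XO embryos at date code 2, and under the date block the dimmer pat-2 probe set turned to -0.3129 in XO embryos; the cause was not tested.

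With the replicate letter as a block, which on egg plates leaves only the contrast within date code 2, called probe sets went to 7454 in sdc-2 (main 4525), 9718 in dpy-27 (7150) and 8919 in XO embryos (7007), and to 9801 at date code 2 (9281). Under this replicate block unc-97 (-0.2887), deb-1 (-0.5468) and the dimmer pat-2 probe set (-0.4793) turned round in XO embryos.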
